A study of Saccharomyces cerevisiae with 17 samples.

Results

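A set of 8 S. cerevisiae genes that make, recycle or use glutathione was followed through brewery propagation and fermentation of the lager yeast strain CB11. The genes were taken by name as a list: GSH1 (YJL101C) and GSH2 (YOL049W) of glutathione synthesis, GLR1 (YPL091W), the reductase, and the transferases GTT1 (YIR038C), GTT2 (YLL060C), ECM4 (YKR076W, also named GTO2), GTO1 (YGR154C) and GTO3 (YMR251W). Each of the 8 genes was read by 1 probe set, and these are 8 of the 5449 genes tested. The array is an Affymetrix yeast chip, and its deposited values are RMA expression summaries on the log2 scale, so that a difference of 1 is a 2-fold change. Levels of different genes were not compared, because each probe set has its own response.

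The study concerned the response of this strain to oxidative stress in production. Fermentation samples came from a 3275 hL vessel filled with wort oxygenated to 25 mg/L, pitched with a yeast batch that had been through earlier fermentations, and were taken at 8 h (3 arrays), 30 h (2 arrays) and 60 h (3 arrays). Propagation samples came from an oxygenated 140 hL vessel held at 7 to 8 mg/L dissolved oxygen, at 0 h, 8 h and 30 h after inoculation (3 arrays each). All groups are strain CB11, without a named mutation, in wort of 17 degrees Plato, with 0.2 mg/L zinc sulphate in fermentation and 0.5 mg/L zinc ion in propagation. The letters A, B and C mark samples drawn from 1 vessel at 1 time, so p-values measure the spread within a vessel. The effects of stage, of the vessel, of oxygen and of the generation of the yeast cannot be told apart. Lager yeasts are hybrids that carry a second parental genome, and a probe set may read transcripts from either.

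Glutathione is a tripeptide thiol that buffers the redox state of the yeast cell. Gsh1 joins glutamate and cysteine in the rate-limiting step, Gsh2 adds glycine, and Glr1 uses NADPH to return oxidised glutathione to its reduced form. Transferases couple glutathione to reactive compounds or use it to reduce them: Gtt1 is associated with the endoplasmic reticulum, Gtt2 is a second classical transferase, and Ecm4, Gto1 and Gto3 are the omega-class enzymes, of which Gto1 is peroxisomal. Yap1, a regulator of the oxidative stress response, is known to act on GSH1 and GLR1, and Met4, the regulator of sulfur metabolism, on GSH1.

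The 6 arrays taken at 8 h and 30 h of propagation were unlike the rest. Over the tested genes they correlated with each other at 0.88 to 0.96 and with the other 11 arrays at 0.37 to 0.56. On them the median of 14 meiosis and sporulation markers was 7.10 to 8.08, against 5.00 to 6.02 on the other arrays, and the median of 10 haploid mating markers was 7.41 to 8.46, against 5.15 to 6.69. Summed as linear values, the meiosis markers reached 3160 to 5636 on these arrays, against 545 to 1748 on the others, and the mating markers 3010 to 5388, against 398 to 1167. Not every marker was higher. Between propagation 8 h and 0 h 11 of 14 meiosis and 8 of 10 mating markers rose (limma adjusted p under 0.05), against 24.3% of all genes. IME2, NDT80, ZIP1, MFA1 and SAG1 did not pass, and the mean of IME2 was 6.76 at 8 h and 7.17 at 0 h. Hybridization controls averaged 12.2 to 12.8 there, against 4.83 to 10.7 elsewhere. No marker was at 0, which log2 RMA values do not reach here. Their part in the changes given below was not tested. The gap between 3-prime and 5-prime signal of 8 control genes, a sign of shortened RNA, was largest on propagation 0 h A (4.39), fermentation 60 h A (3.44) and fermentation 8 h A (3.10). Propagation 0 h A was also unlike B and C of its group over all tested genes. It correlated with them at 0.81 and 0.84, against 0.98 between B and C. Every comparison with propagation 0 h includes this array, unless it is said to be left out. Fermentation 8 h B and C were nearly alike, with a correlation of 0.998, and their correlations with fermentation 30 h C were both 0.993, above the 0.985 between fermentation 30 h B and C. Titles of the fermentation 8 h and 30 h arrays carry a mark that no other title has and whose meaning is not given, so a batch behind it cannot be told apart from the difference of these groups from the others.

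Probe sets for another yeast species on the same chip gave a measure of unspecific signal. Their 95th percentile lay at 4.52 to 5.63, depending on the array. GSH1, GLR1 and GTT1 were above it on all 17 arrays, GSH2 and ECM4 on 16, GTO1 on 15 and GTT2 on 13. GTO3 was above it on 1 array, fermentation 60 h C, so its differences are between dim signals. Outside propagation 8 h and 30 h the group means of the meiosis markers SPS2 (3.94 to 4.26) and DIT2 (3.70 to 4.05) were below this level, while others, such as DMC1 (6.38 to 8.62), were above it. The class of genes of lowest level, described below, had a median change of 0.63 between propagation 8 h and 0 h, so a rise there is not particular to meiosis or mating markers.

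**Figure D1:**
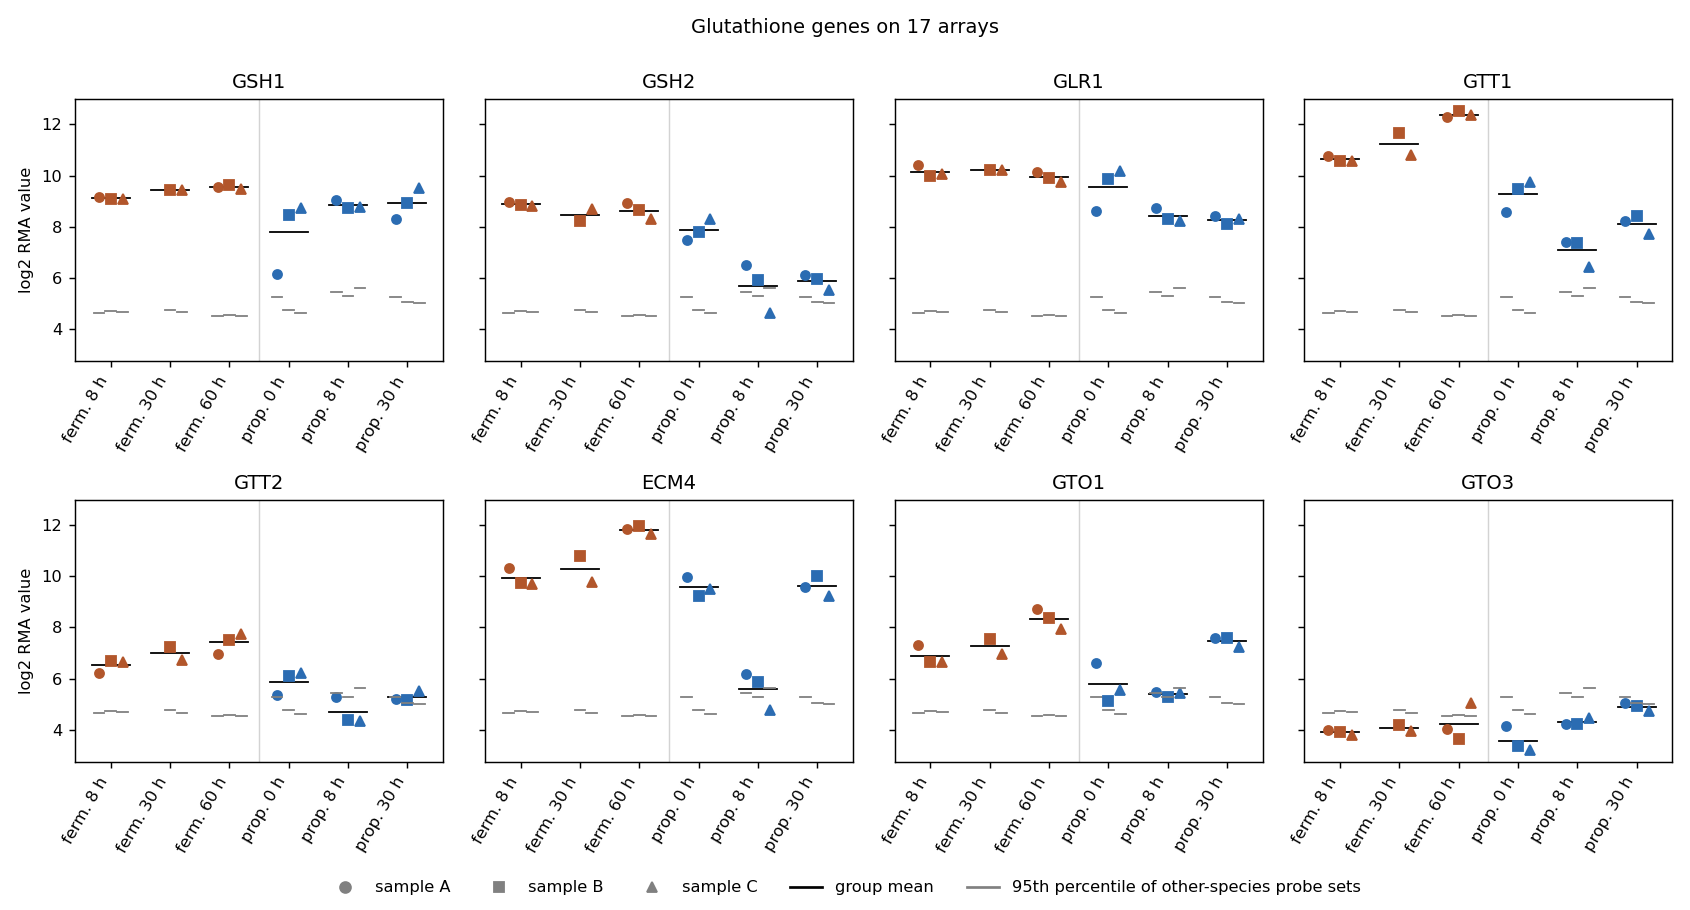
Deposited log2 RMA value (vertical axis) of the 8 glutathione genes in each group (horizontal axis); symbols are single arrays, black bars are group means and short grey bars are the 95th percentile of the other-species probe sets on that array. ECM4 drops to between 4.76 and 6.18 at propagation 8 h, GSH1 has 1 low array at propagation 0 h (6.17), and GTO3 lies above the grey bar on fermentation 60 h C alone.

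GSH1 varied little within each fermentation time and had 1 very low array in propagation. Its log2 values on arrays A, B and C were 9.18, 9.08 and 9.09 at fermentation 8 h, 9.46 and 9.45 on B and C at 30 h, and 9.55, 9.63 and 9.47 at 60 h. In propagation they were 6.17, 8.48 and 8.72 at 0 h, 9.05, 8.75 and 8.77 at 8 h, and 8.33, 8.93 and 9.51 at 30 h. The value of 6.17 is on propagation 0 h A, the array with the largest control gap, and it sets the spread of its group (7.79 ± 1.41, SD, n = 3). From high to low the group means ran fermentation 60 h, 30 h and 8 h, then propagation 30 h, 8 h and 0 h. Of neighbouring groups, the ranges of fermentation 8 h and propagation 30 h overlapped, as did those of propagation 30 h and 8 h. Propagation 30 h C, at 9.51, was also above both fermentation 30 h arrays and fermentation 60 h C. The 3 fermentation times did not overlap with each other.

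GSH2 and GLR1 were lower at propagation 8 h and 30 h than in any other group. GSH2 values were 8.99, 8.85 and 8.83 at fermentation 8 h, 8.25 and 8.71 at 30 h, and 8.92, 8.66 and 8.29 at 60 h. They were 7.49, 7.81 and 8.30 at propagation 0 h, 6.50, 5.93 and 4.63 at 8 h, and 6.14, 5.98 and 5.54 at 30 h. No array of propagation 8 h or 30 h reached a GSH2 value of any other group, and propagation 8 h C fell below the unspecific level. GLR1 lay between 9.77 and 10.40 on the 8 fermentation arrays. In propagation it was 8.64, 9.89 and 10.19 at 0 h, 8.76, 8.30 and 8.24 at 8 h, and 8.41, 8.13 and 8.33 at 30 h. Propagation 0 h A, at 8.64, sat within the range of the later propagation arrays, and B and C of its group within that of fermentation.

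GTT1 was the transferase with the cleanest order of groups. Its values were 10.76, 10.59 and 10.57 at fermentation 8 h, 11.67 and 10.79 at 30 h, and 12.28, 12.52 and 12.37 at 60 h. They were 8.59, 9.48 and 9.74 at propagation 0 h, 7.43, 7.37 and 6.45 at 8 h, and 8.21, 8.43 and 7.71 at 30 h. Ranked by mean, no 2 neighbouring groups overlapped: fermentation 60 h, 30 h and 8 h came first, followed by propagation 0 h, 30 h and 8 h. GTT2 had the same order of group means, with overlap between some neighbours. Its values were 6.23, 6.70 and 6.64 at fermentation 8 h, 7.24 and 6.73 at 30 h, and 6.97, 7.52 and 7.76 at 60 h, and in propagation 5.34, 6.09 and 6.22 at 0 h, 5.28, 4.40 and 4.35 at 8 h, and 5.20, 5.16 and 5.50 at 30 h. All 3 GTT2 values at propagation 8 h and 1 at 30 h were not above the unspecific level.

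Of the omega-class genes ECM4 and GTO1 had their highest group means at fermentation 60 h and their lowest at propagation 8 h. For GTO1 the ranges of propagation 8 h and 0 h overlapped. ECM4 values were 10.33, 9.72 and 9.70 at fermentation 8 h, 10.80 and 9.77 at 30 h, and 11.82, 11.95 and 11.66 at 60 h. They were 9.97, 9.24 and 9.48 at propagation 0 h, 6.18, 5.87 and 4.76 at 8 h, and 9.58, 10.01 and 9.22 at 30 h. The 3 arrays of propagation 8 h lay far below every other array, and the ranges of propagation 0 h and 30 h overlapped. GTO1 values were 7.30, 6.66 and 6.65 at fermentation 8 h, 7.53 and 6.97 at 30 h, and 8.71, 8.35 and 7.94 at 60 h. In propagation they were 6.62, 5.14 and 5.56 at 0 h, 5.46, 5.29 and 5.45 at 8 h, and 7.60, 7.57 and 7.23 at 30 h. GTO1 was thus no lower at propagation 30 h than at fermentation 8 h and 30 h, whose ranges it met, and fermentation 60 h lay above every other array. GTO3 stayed between 3.22 and 5.06 on all arrays, with its highest group mean at propagation 30 h (4.90 ± 0.17, SD, n = 3) and its lowest at propagation 0 h (3.57 ± 0.49, SD, n = 3).

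Within fermentation 3 of the 5 transferase genes rose late. At 60 h against 8 h GTT1 rose by 1.75 (3.35-fold, SE 0.33, limma adjusted p = 0.00188), ECM4 rose by 1.90 (3.72-fold, SE 0.36, adjusted p = 0.00188) and GTO1 rose by 1.46 (2.75-fold, SE 0.33, adjusted p = 0.0062), and on all 3 genes the 60 h arrays lay above every 8 h array. Fewer cells of a type and less RNA per cell cannot be told apart in such bulk samples. In all, 3 of 8 genes rose and 0 fell, against 9.21% of all tested genes higher and 6.64% lower, 15.9% in either direction. The median over the 8 genes was 0.67, beside 0.08 over all genes. GTT2 was 0.90 (SE 0.31, adjusted p = 0.0576). It passed without fermentation 60 h A, propagation 0 h A or propagation 8 h A (adjusted p = 0.0186 to 0.0392 with 1 of them left out). GSH1 was 0.44 (adjusted p = 0.596), GSH2 -0.27, GLR1 -0.21 and GTO3 0.34, none of which passed. Same-letter samples of these times deviated together (correlations of residuals 0.34 to 0.78). Residuals balance out within a group, and array A had the largest control gap at both times, so this does not show that the letters pair the samples. With the letter as a replicate block and only these 6 arrays, a fit added after the data were seen, 5 of 8 genes passed, GTT2 (SE 0.12, adjusted p = 0.00058) and GSH1 (SE 0.11, adjusted p = 0.0122) among them, and 2977 of all genes in place of 864.

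The steps within fermentation were less clear. Between 30 h and 8 h 0 of 8 genes and 0 of 5449 (0%) passed in limma, although 189 genes had an unadjusted p under 0.05, none of them a glutathione gene. The 30 h array C had 10.79 for GTT1 and 9.77 for ECM4, just above and within the range of the 8 h arrays, while 30 h B had 11.67 and 10.80, above all of them. With array weights, which count arrays far from their group less, GTT1 (0.65, adjusted p = 0.0465) and GTO1 (0.58, adjusted p = 0.0486) passed, and 313 genes in all. The weights were 11.2 and 8.40 for the nearly alike fermentation 8 h B and C, 0.43 for 8 h A and 1.47 for each 30 h array. Propagation 0 h A had the lowest weight of all arrays, 0.063. Between 60 h and 30 h only ECM4 rose, by 1.53 (SE 0.40, adjusted p = 0.0411), against 4.31% of all genes called in either direction and 2.84% higher. That call was lost on leaving out any 1 of 8 arrays (fermentation 8 h B or C, 30 h C, 60 h A, B or C, and propagation 8 h B or 30 h A), with adjusted p = 0.0512 to 0.587. GTT1 was 1.15 (adjusted p = 0.0846) and GTO1 1.08 (adjusted p = 0.101), and leaving out propagation 0 h A brought both past the threshold (adjusted p = 0.0196 and 0.015). An F test over the 3 fermentation times called GTT1 (adjusted p = 0.00609), ECM4 (0.00487) and GTO1 (0.0174), 3 of 8 genes, against 10.9% of all genes. GTO1 lost this F test call without fermentation 8 h B or C, or 60 h A or B (adjusted p = 0.063 to 0.1).

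At propagation 8 h 5 of the 8 genes were lower than at 0 h, on arrays that stand apart. ECM4 fell by 3.96 (15.5-fold lower, SE 0.36, adjusted p = 8.46e-08), GTT1 by 2.19 (SE 0.33, adjusted p = 2.06e-05) and GSH2 by 2.18 (SE 0.37, adjusted p = 5.98e-05). GTT2, not above the unspecific level on any propagation 8 h array, fell by 1.20 (adjusted p = 0.00236), and GLR1 fell by 1.14 (adjusted p = 0.00392). These are 5 of 8 genes lower, against 43.1% of all tested genes. GTO3 rose by 0.73 (adjusted p = 0.0463), 1 of 8 genes higher against 24.3% of all, and this call was lost on leaving out any 1 of 14 arrays (adjusted p = 0.0505 to 0.17) and under quantile normalization (0.30, adjusted p = 0.345). With 67.4% of all genes called, the number of calls says little about these genes. All genes were split into 4 equal classes by level, the mean over the 11 arrays other than propagation 8 h and 30 h. Between propagation 8 h and 0 h the class of highest level had a median change of -1.48, and the class of lowest level 0.63. Classes picked on the arrays of only the other side tend to give such a pattern by themselves. The class medians are therefore only a description, here and wherever propagation 8 h or 30 h is compared with other groups. ECM4, in the highest class, was below all but 0.973% of the 5449 genes. GLR1 and GTT1 were in the same class, and the change of GLR1 was smaller than the class median.

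GSH1 was 1.07 between propagation 8 h and 0 h (SE 0.47, adjusted p = 0.0519) and rose by 1.13 between 30 h and 0 h (SE 0.47, adjusted p = 0.0406). The call at 30 h was lost without propagation 0 h A, where the difference was 0.32 (adjusted p = 0.274), and without propagation 30 h B (1.13, adjusted p = 0.0807) or C (0.84, adjusted p = 0.167). The 8 h difference passed on leaving out propagation 0 h B (1.41, adjusted p = 0.0199) or C (1.53, adjusted p = 0.00948), the arrays without the low value. As the plot of GSH1 against the control gap shows, the low value and the largest gap are on the same array, and the part of RNA quality in it was not tested. Fermentation 60 h A and 8 h A, the arrays with the next largest gaps, had GSH1 values of 9.55 and 9.18, close to the other arrays of their groups.

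**Figure D2:**
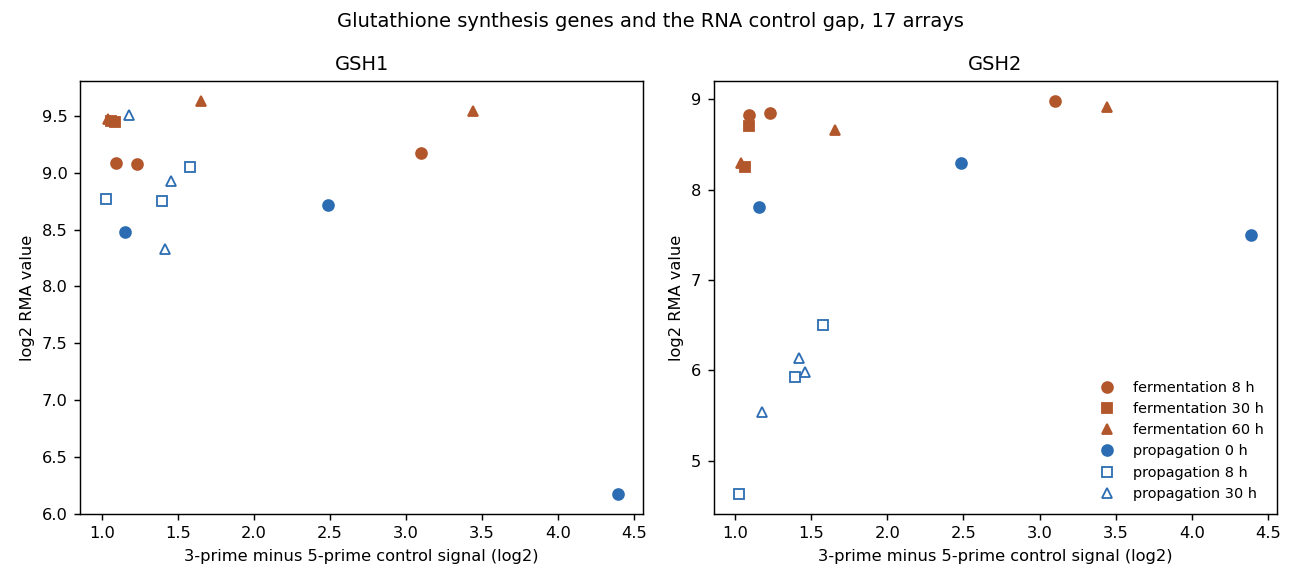
Log2 RMA value of GSH1 (left) and GSH2 (right) on each of the 17 arrays (vertical axes) against the 3-prime minus 5-prime signal of 8 control genes in log2 units (horizontal axes), with groups by symbol. GSH1 is at 6.17 on the array with a gap of 4.39, and 8.33 or higher on the other 16, and GSH2 is lower on the 6 arrays of propagation 8 h and 30 h than on any other.

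Over the whole propagation, 30 h against 0 h, some of the genes fell and others rose, in counts close to the shares over all genes. This comparison shares its 0 h arrays with that at 8 h. GSH2 fell by 1.98 (SE 0.37, adjusted p = 0.000144), GLR1 fell by 1.28 (SE 0.31, adjusted p = 0.0016) and GTT1 fell by 1.15 (SE 0.33, adjusted p = 0.00544), 3 of 8 genes against 38.7% of all genes lower. GTO1 rose by 1.69 (3.23-fold, SE 0.33, adjusted p = 0.000228) and GTO3 rose by 1.32 (SE 0.31, adjusted p = 0.00117), which with GSH1 makes 3 of 8 higher against 28.6% of all genes, and 67.3% were called in either direction. GTO3, not above the unspecific level on any array of these groups, is in the class of lowest level, whose median change was 0.91. GTO1 is in the next class, whose median was -0.10. GLR1 and GTT1 are in the class of highest level, whose median was -1.53, and both fell less than that. GSH2 is in the class below it, whose median was -0.45. ECM4 was 0.04 (SE 0.36, adjusted p = 0.924), with overlapping ranges. GTT2 was -0.59 (adjusted p = 0.0974) and passed at -0.86 without propagation 0 h A (adjusted p = 0.0145). The F test over the propagation times called 7 of 8 genes, all but GSH1 (adjusted p = 0.0626), against 71.2% of all genes, and GSH1 passed without propagation 0 h B or C or 30 h A (adjusted p = 0.0119 to 0.0409).

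Between propagation 30 h and 8 h, where both groups belong to the arrays that stand apart, 2 omega-class genes rose. ECM4 rose by 4.00 (16.0-fold, SE 0.36, adjusted p = 3.54e-06), the largest rise among all 5449 genes, and GTO1 rose by 2.07 (4.19-fold, SE 0.33, adjusted p = 0.00113), rank 10. At propagation 8 h GTO1 was not above the unspecific level on 2 of 3 arrays and ECM4 on 1 of 3, so the sizes of these folds are uncertain. On both genes every 30 h array lay above every 8 h array, by at least 3.04 for ECM4 and 1.77 for GTO1. These are 2 of 8 genes higher and 0 lower, against 3.08% and 1.93% of all genes and 5.01% in either direction. GTT1 was 1.03 (SE 0.33, adjusted p = 0.0842) and was past the threshold when propagation 0 h A was left out (adjusted p = 0.0197). GSH1, GSH2 and GLR1 were 0.06, 0.20 and -0.14, and GTT2 and GTO3 0.61 and 0.59, none of which passed. The growth markers PDC1 and ADH1 fell by 2.17 and 1.56 in the same comparison, and their part in the result was not tested. Level made little difference in this comparison, with medians of 0.24 in the lowest class and 0.05 in the highest.

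**Figure D3:**
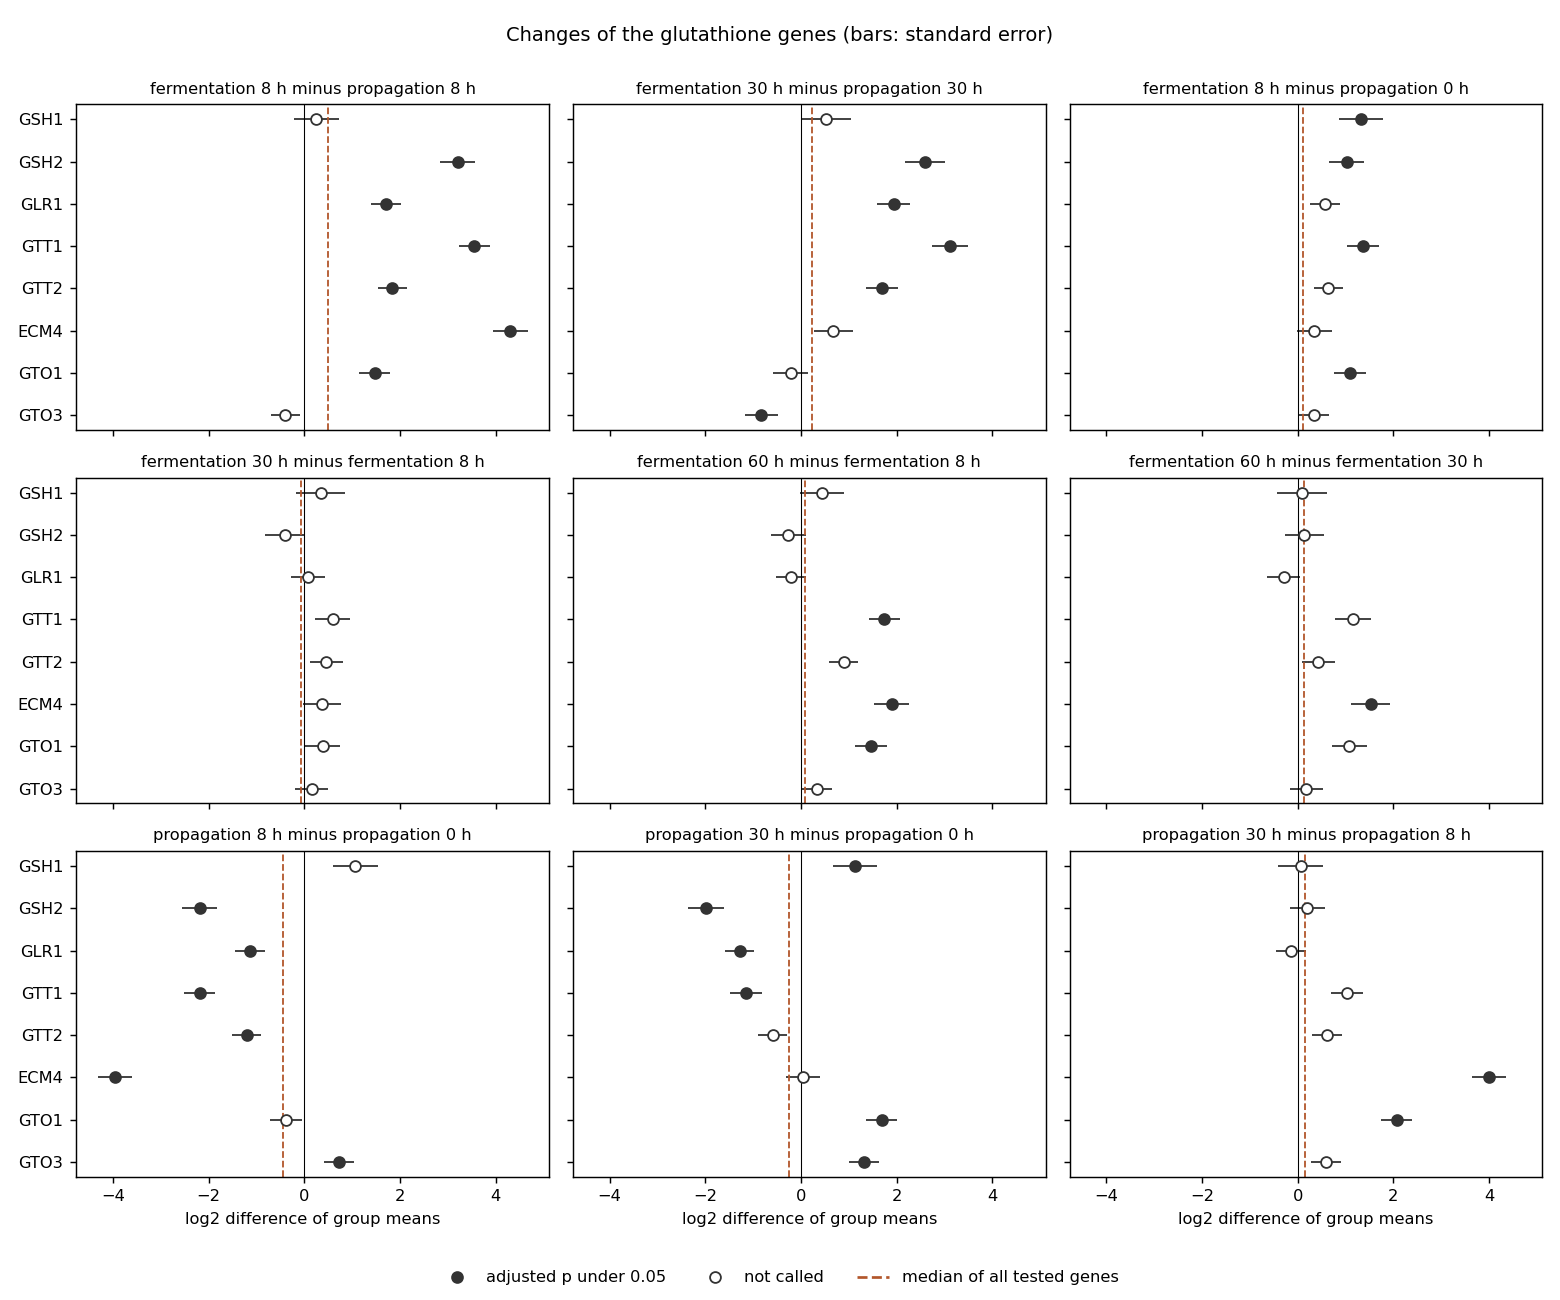
Log2 difference of group means (horizontal axis) of the 8 genes in each of 9 comparisons; bars are standard errors of the limma fit, filled points have an adjusted p under 0.05 and the dashed line is the median of all genes. GTT1, ECM4 and GTO1 are filled between fermentation 60 h and 8 h, and ECM4 (4.00) and GTO1 (2.07) between propagation 30 h and 8 h.

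At matched times 6 of the 8 genes were higher in fermentation at 8 h and 4 at 30 h, a difference that includes all that sets the propagation 8 h and 30 h arrays apart. At 8 h, 6 of 8 genes were higher in fermentation and 0 lower, against 44.7% and 24.4% of all genes and 69.2% in either direction. ECM4 differed by 4.31 (19.8-fold, SE 0.36, adjusted p = 2.56e-08), GTT1 by 3.56 (11.8-fold, SE 0.33, adjusted p = 8.03e-08) and GSH2 by 3.21 (9.23-fold, SE 0.37, adjusted p = 8.16e-07). GLR1 was higher by 1.71. GTT2 was higher by 1.84 and GTO1 by 1.47, against propagation 8 h signals not above the unspecific level on 3 of 3 and 2 of 3 arrays, and GSH2 and ECM4 were not above it on 1 of 3, so these sizes are uncertain. The medians were 1.78 over the 8 genes and 0.49 over all genes, with 1.91 in the class of highest level, to which ECM4, GTT1 and GLR1 belong. GSH1 was 0.26 and GTO3 -0.39, neither of which passed. PGK1, ENO2, PDC1 and ADH1 of the growth markers were higher in fermentation by 0.84 to 2.03, and their part was not tested. GTO3 passed after the arrays were recentred on their medians (-0.80, adjusted p = 0.0449).

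At 30 h, 4 of 8 genes were higher in fermentation than in propagation and 1 was lower, against 37.5% and 27.9% of all genes and 65.4% in either direction. With 65.4% of all genes called here, and 69.2% at 8 h, the number of calls says little about these genes. GTT1 differed by 3.11 (SE 0.37, adjusted p = 1.48e-06), GSH2 by 2.60 (SE 0.41, adjusted p = 3.23e-05), GLR1 by 1.94 (SE 0.35) and GTT2 by 1.69 (SE 0.34). GTT1, GLR1 and ECM4 are in the class of highest level, whose median was 1.93, close to the difference of GLR1. The class of GSH2 had a median of 0.49 and that of GTT2, the lowest, -1.11. ECM4 was 0.68 (SE 0.40, adjusted p = 0.15) and GTO1 -0.21 (SE 0.37, adjusted p = 0.63), neither of which passed. All 5 growth markers were higher in fermentation here, by 2.41 to 3.86, and their part was not tested. ECM4 passed at 1.19 without fermentation 30 h C (adjusted p = 0.0483). GTO3 was lower by 0.83 in fermentation (adjusted p = 0.044), a call lost on leaving out any 1 of 11 arrays (adjusted p = 0.0502 to 0.188) and under quantile normalization (-0.31, adjusted p = 0.398).

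Fermentation 8 h against propagation 0 h compares the means of groups outside the arrays that stand apart. Those arrays still enter the fit, which takes 1 spread per gene from all arrays. On only the other 11 arrays fewer of the 8 genes were called, as given in the last section. Here 4 of 8 genes were higher in fermentation and 0 lower, against 16.5% and 11.5% of all genes and 28.1% in either direction, with a median of 0.83 beside 0.10 over all genes. Of 5 markers of growing or fermenting yeast, the glycolytic and ethanol pathway genes TDH3, PGK1, ENO2 and PDC1 were also higher, by 1.72 to 3.33, and ADH1 was 0.50 (adjusted p = 0.33). The median of these markers was 8.52 on propagation 0 h A, against 11.74 and 11.47 on B and C, so these sizes are uncertain. The part of these markers in the result was not tested. GTT1 was higher in fermentation by 1.37 (2.58-fold, SE 0.33, adjusted p = 0.00549), with all 3 fermentation 8 h arrays above all 3 propagation 0 h arrays, and this call held on leaving out each array in turn. The call on GTO1 (1.09, SE 0.33, adjusted p = 0.02) was lost without fermentation 8 h A or propagation 0 h B or C (adjusted p = 0.0629 to 0.0995), and after quantile normalization (0.89, adjusted p = 0.0557). GSH1 was called at 1.32 (SE 0.47, adjusted p = 0.0432), and the difference was 0.51 (adjusted p = 0.138) without propagation 0 h A. GSH2 was called at 1.02 (SE 0.37, adjusted p = 0.0474). The GSH1 and GSH2 calls were lost on leaving out any 1 of 13 and 14 arrays, with adjusted p = 0.0509 to 0.138 and 0.0509 to 0.111. GLR1, GTT2, ECM4 and GTO3 were 0.57, 0.64, 0.35 and 0.34 and did not pass, although GLR1 passed without propagation 0 h C (0.88, adjusted p = 0.0498). Same-letter samples deviated together here too (0.32 to 0.64), with the largest control gap again on array A, although the groups came from different vessels. With the letter as a replicate block on these 6 arrays GSH1 did not pass (1.32, SE 0.54, adjusted p = 0.135), while GSH2, GTT1 and GTO1 did.

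The change between 8 h and 30 h differed by stage for ECM4. It was 0.37 (SE 0.40) in fermentation and 4.00 (SE 0.36) in propagation, and the difference of these changes was -3.63 (SE 0.54, limma adjusted p = 0.00424), the lowest of all 5449 genes. This was 1 of 8 genes called, against 0.275% of all genes in either direction, 0.147% lower and 0.128% higher. For GTO1 the difference was -1.68 (SE 0.49, adjusted p = 0.185), past the threshold when propagation 0 h A was left out (adjusted p = 0.0252). The other 6 genes had differences of -0.61 to 0.28, none of which passed.

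**Figure D4:**
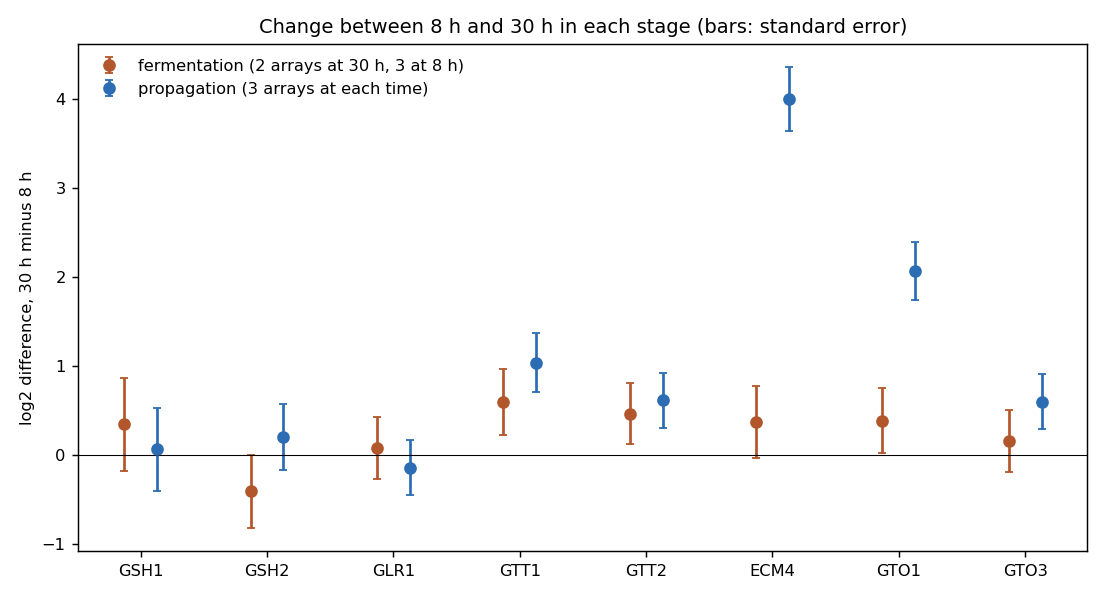
Log2 difference between 30 h and 8 h (vertical axis) of the 8 genes in fermentation (left point of each pair) and propagation (right point); bars are standard errors of the limma fit. ECM4 is at 0.37 in fermentation and 4.00 in propagation, and the fermentation points lie between -0.41 and 0.59.

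Other genes of glutathione metabolism were read from lists. Between fermentation 60 h and 8 h, where 9.21% of all genes were higher and 6.64% lower, 3 of 5 genes of glutathione-dependent aldehyde detoxification rose and 0 fell: GLO1 and GLO4 of the glyoxalase route by 0.97 and 1.01, and YJL068C, the S-formylglutathione hydrolase, by 1.06. The median of this list was 0.97, beside 0.08 over all genes. Of 11 peroxidases and glutaredoxins 2 rose, GRX4 by 1.40 and the peroxidase HYR1 by 1.04, and GRX6 fell by 1.22. Of 9 breakdown and transport genes GCG1, which cleaves glutathione, rose by 1.44 (SE 0.33, adjusted p = 0.00673), and DUG1, a peptidase also of glutathione breakdown, fell by 0.70. Among 12 NADPH supply genes GND2 rose by 1.87 and IDP2 by 1.31, and none fell. Of 20 cysteine and methionine supply genes STR3 rose by 2.96 and MUP1 by 1.44, while CYS3, which makes cysteine, fell by 1.31 and MET3 by 1.20. The medians of these lists were 0.47, -0.03, 0.11 and 0.19. Of the 10 regulators only YAP1 rose, by 1.14 (SE 0.34, adjusted p = 0.0308), and none fell.

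Between propagation 30 h and 8 h no gene of the breakdown, peroxidase and glutaredoxin, aldehyde or regulator lists passed. In the NADPH list IDP2 rose by 2.40, ALD6 by 1.72 and SOL4 by 0.98, 3 of 12 genes against 3.08% of all genes higher, and in the cysteine and methionine list STR3, MET10, YCT1 and STR2 rose by 0.84 to 1.14, 4 of 20. Between fermentation 8 h and propagation 0 h 6 of 20 cysteine and methionine genes were higher, with MET6 at 2.73 furthest, and 0 lower, against 16.5% and 11.5% of all genes. GLO1, GLO2 and YJL068C were higher there by 1.08, 1.24 and 0.90, 3 of 5 aldehyde genes. Between propagation 8 h and 0 h 4 of 5 aldehyde genes fell: GLO1 by 2.07, GLO2 by 3.45, GLO4 by 1.60 and SFA1 by 2.49. Of 11 peroxidases and glutaredoxins 7 fell, GRX1 furthest with 3.96. Of 9 breakdown and transport genes DUG1 fell by 1.01, DUG2 by 3.17, YCF1 by 0.61, BPT1 by 2.23 and GCG1 furthest, and OPT1, which imports glutathione, rose by 1.86. Of 12 NADPH supply genes 7 fell, IDP2 furthest with 5.88, and YEF1 and POS5 rose by 2.27 and 0.93. Of 20 cysteine and methionine genes 11 fell, SAH1 furthest with 3.37, and MET5, MET10 and MET17 rose by 0.82, 1.27 and 1.42. Of 10 regulators 6 rose, MET4 furthest with 1.83, and YAP1 fell by 1.24. These counts are from the arrays that stand apart and stand against 43.1% of all genes lower and 24.3% higher.

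The genes with the most similar pattern were sought by Pearson correlation over the 17 arrays, with the value over the 11 arrays other than propagation 8 h and 30 h given after it. GTT1 was nearest to ABF1 (0.99 and 0.98) and SSA3 (0.99 and 0.97), and GTT2 to MET30 (0.98 and 0.97) and to GTT1 itself (0.96 and 0.94). ECM4 was nearest to ART10 (0.98 and 0.94) and SPG4 (0.96 and 0.98), and GTO1 to SIP18 (0.93 and 0.96) and BNA4 (0.92 and 0.94). For these 4 transferases the correlations were at 0.92 or higher on both sets of arrays. The 11 arrays are part of the 17 on which the genes were picked, so they are no separate check. GSH1 was nearest to ULS1 (0.94 and 0.97) and SHE4 (0.94 and 0.96), GSH2 to RIM1 (0.98 and 0.80) and PHB2 (0.98 and 0.91), and GLR1 to VPH1 (0.98 and 0.92) and ARC19 (0.98 and 0.89). GTO3 was nearest to ABM1 (0.84 and 0.71) and MGT1 (0.82 and 0.70).

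Among the 8 genes over those 11 arrays, GTT1 correlated with GTT2 at 0.94 and with ECM4 at 0.86, and ECM4 with GTO1 at 0.92. GLR1 correlated with GSH1 at 0.86 and with ECM4 at 0.04. Over all 17 arrays GSH2 correlated with GLR1 at 0.93 and with GSH1 at 0.21. The arrays share vessels and RNA quality, so these values describe the 17 arrays.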

How the data were processed

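The authors deposited log2 expression summaries of 10928 probe sets on 17 arrays, made with RMA per the submitters' processing notes; which arrays were normalized together is not given in the sources used here. They ran from 2.17 to 14.07 and were used as deposited. Probe sets were named from the platform annotation, with symbols updated by gene number to RefSeq (assembly R64), and a gene with several probe sets was read by the one with the highest mean. For arrays, their number limits the precision. A single model with a mean for each of the 6 groups was fitted in limma 3.58.1 (functions lmFit and eBayes, R 4.3.3), using every array. Each of 9 contrasts and 2 F tests had its p-values adjusted by the Benjamini-Hochberg method across the 5449 genes. A gene was called at an adjusted p under 0.05. The contrast between stages of the change from 8 h to 30 h was added after the data were seen. The fit was tested on simulated data.

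The members, lists and tests were chosen with earlier results of these data known. All 8 members were described, with list genes named where a comparison called 5 or fewer, or else the called one of largest change, and for each member the 2 named genes of highest correlation. Of the list genes, GEX2 and TEF1 were not matched to a tested gene. Growing or fermenting yeast was checked by TDH3, PGK1, ENO2, PDC1 and ADH1, whose array medians were 8.52 to 13.24. The planned promoter motif search was not run, since no sequences were used here. The alternatives leave out dim genes, change the centring, normalization, probe set rule, samples, weights, block, variance model or covariate, average near-identical arrays or leave out each array. Same-letter samples were checked for shared deviation. All 3 correlations of residuals were over 0.1 between fermentation 60 h and 8 h (0.34 to 0.78) and between fermentation 8 h and propagation 0 h (0.32 to 0.64). The block by letter on only the groups compared was therefore run for these comparisons, and not for the other 7. Residuals balance out within a group, so the 3 correlations are not separate signs of pairing. Array A had the largest control gap in each of these 3 groups. Fermentation 8 h and propagation 0 h came from different vessels, so their letters do not link samples by origin.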

Additional observations from a re-analysis of the deposited data

Results flagged for a closer look

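ECM4 was picked out because its change between 8 h and 30 h differed between the stages: the change in fermentation minus that in propagation was -3.631 on the log2 scale (SE 0.54, limma adjusted p = 0.00424). Fermentation had 0.37 and propagation 4.00. The difference ran from -4.15 to -3.12 over 28 alternatives, all of which called it (adjusted p = 1.88e-05 to 0.0486), and propagation 8 h C, at 4.76, was the only ECM4 value not above the unspecific level.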

How the results depend on the processing

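Of 96 pairs of a gene and a comparison or F test, 44 passed the threshold, 35 of these under every alternative run, and none turned direction while called. The number of the 8 genes called moved as follows. Without the dimmest 25% of genes, where GTT2, GTO1 and GTO3 were not tested, it was 1 between propagation 30 h and 8 h (2 with all genes), 3 between fermentation 30 h and propagation 30 h (5 with all genes) and 4 for any time of propagation (7 with all genes). With array weights it was 2 between fermentation 30 h and 8 h (0 unweighted), 5 between 60 h and 8 h (3), 4 between 60 h and 30 h (1) and 5 for any time of fermentation (3). Fitting only the groups compared gave 5 between fermentation 60 h and 8 h, 2 between 60 h and 30 h and 2 between fermentation 8 h and propagation 0 h. Between fermentation 60 h and 30 h the count was 0 after recentring, quantile normalization or averaging fermentation 8 h B and C, 2 with the control gap as covariate, 3 without the 3 arrays of largest gap, and 0 to 3 with 1 array left out. Between fermentation 8 h and propagation 0 h it was 4, but 2 after quantile normalization, after averaging fermentation 8 h B and C, on only the 11 arrays, and without the 3 arrays of largest gap, and 1 to 4 with 1 array left out. The last 2 of these alternatives, the stage contrast and the block on only the groups compared were chosen after seeing the data. The causes were not tested.

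A replicate block by letter on only the groups compared gave 5 genes called between fermentation 60 h and 8 h and 3 between fermentation 8 h and propagation 0 h. With a replicate block by letter in the fit of all arrays, GSH1 passed between propagation 8 h and 0 h (adjusted p = 0.0369) and for any time of propagation (0.043), ECM4 passed between fermentation 30 h and propagation 30 h (0.82, adjusted p = 0.0393), and GTO3 did not pass there (-0.78, adjusted p = 0.0649). This second block changed no other call. Counts over all genes ranged over the alternatives from 149 to 914 between propagation 30 h and 8 h (273 as reported), from 431 to 3606 between fermentation 60 h and 8 h (864), from 2 to 2025 between 60 h and 30 h (235), from 833 to 3184 between fermentation 8 h and propagation 0 h (1529), from 0 to 313 between fermentation 30 h and 8 h (0), from 264 to 3476 for any time of fermentation (594) and from 6 to 349 for the stage contrast (15). Signal near the unspecific level limits GTO3 throughout, GTT2 at propagation 8 h (3 of 3 arrays) and 30 h (1 of 3), and at propagation 8 h also GTO1 (2 of 3), ECM4 and GSH2 (1 of 3 each).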
